A study of Homo sapiens with 32 samples.

Results

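LINGO1, CSPG4, IGSF21 and NXPH2 encode cell-surface or secreted proteins of the nervous system, and their loci were described here for H3K27ac, the acetylated lysine of histone H3 that is found at promoters and enhancers in use. A region of the authors' comparison tables was taken as belonging to a gene when the nearest protein-coding start site within 100 kb was a start of that gene, or when the region overlapped the gene body. This gave 85 of 92108 regions, of which 43 belonged to LINGO1, 10 to CSPG4, 28 to IGSF21 and 4 to NXPH2. The 4 genes were picked on the treated-minus-DMSO differences in these same tables, so the differences, counts and peaks below are a description and carry no test.

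The cells were SK-N-BE(2)C, an established human neuroblastoma line with amplified MYCN and a loss on the short arm of chromosome 1, the arm that holds IGSF21. Treatment lasted 5 days and was with the vehicle DMSO, with palbociclib (PB), which blocks CDK4 and CDK6, with retinoic acid (RA), a ligand of nuclear receptors, or with both (PB+RA). Each of the 4 groups held 4 ChIP libraries and 4 input libraries of this 1 line. The palbociclib dose in the labels was 1 µM, and the labels attach it to every sample, DMSO included, so the groups rest on the sample titles and treatment entries.

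LINGO1 is a transmembrane protein with leucine-rich repeats that joins the Nogo receptor RTN4R and the neurotrophin receptor NGFR in a complex that restrains axon growth. CSPG4 (also known as NG2) is a transmembrane chondroitin sulfate proteoglycan of oligodendrocyte precursors, pericytes and several tumours. IGSF21 is an immunoglobulin superfamily protein of synapses that binds a neurexin, and NXPH2 is a neurexophilin, a secreted glycoprotein related to the neurexin ligand NXPH1, and so is not itself a membrane protein.

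The 250 bases before a start site of each gene are shown because the regions over these starts are described library by library further on. They were read from GRCh37 (hg19), 5′ to 3′ on the strand of the gene, with every CG dinucleotide in capitals. The LINGO1 sequence is that of a far 5′ start (chr15:78111795-78112044, minus strand), which overlaps the first exon of another LINGO1 transcript and is the richest in CG of the 11 LINGO1 start windows. The CSPG4 sequence lies at chr15:76005190-76005439 (minus strand), the IGSF21 sequence at chr1:18434042-18434291 (plus strand) and the NXPH2 sequence at chr2:139537961-139538210 (minus strand).
LINGO1: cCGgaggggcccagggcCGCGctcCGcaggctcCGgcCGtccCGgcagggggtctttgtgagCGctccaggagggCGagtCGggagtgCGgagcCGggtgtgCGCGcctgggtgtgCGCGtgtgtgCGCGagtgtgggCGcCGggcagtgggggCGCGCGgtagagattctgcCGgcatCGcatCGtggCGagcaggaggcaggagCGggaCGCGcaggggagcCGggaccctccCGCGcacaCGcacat
CSPG4: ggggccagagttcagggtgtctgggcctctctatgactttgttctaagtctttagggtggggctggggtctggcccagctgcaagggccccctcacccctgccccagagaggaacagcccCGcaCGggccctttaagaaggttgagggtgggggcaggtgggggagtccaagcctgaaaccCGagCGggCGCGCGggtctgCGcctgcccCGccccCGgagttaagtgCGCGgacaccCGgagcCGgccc
IGSF21: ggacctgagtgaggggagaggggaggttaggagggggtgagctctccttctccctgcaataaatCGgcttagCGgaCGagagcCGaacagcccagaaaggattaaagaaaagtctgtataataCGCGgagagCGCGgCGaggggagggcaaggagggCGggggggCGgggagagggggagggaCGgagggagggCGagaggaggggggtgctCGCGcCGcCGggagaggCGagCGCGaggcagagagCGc
NXPH2: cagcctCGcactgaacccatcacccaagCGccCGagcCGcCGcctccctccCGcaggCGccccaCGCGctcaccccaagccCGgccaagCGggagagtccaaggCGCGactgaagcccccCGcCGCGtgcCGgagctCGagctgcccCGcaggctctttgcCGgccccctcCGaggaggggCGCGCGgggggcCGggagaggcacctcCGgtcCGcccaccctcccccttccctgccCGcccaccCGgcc
These windows held 34 CG dinucleotides at LINGO1, 14 at CSPG4, 21 at IGSF21 and 29 at NXPH2, against a median of 11 and a quartile range of 3 to 23 in 35116 RefSeq promoter windows of the same length (table build GRCh38.p14). Their GC content was 75.6%, 68.4%, 66.4% and 78.0%, against a median of 58% in the RefSeq windows. Motifs were searched on both strands. The binding unit of retinoid receptors, AGGTCA, was in none of these windows and in 12.1% of all RefSeq windows. The GATA motif, AGATAA, was in none of them and in 9.17% of all windows. An E-box, CAGCTG, was in the CSPG4 window alone and in 14% of all windows. Of the other 10 LINGO1 start windows, which held 2 to 22 CG dinucleotides, 1 held AGGTCA and 4 held CAGCTG.

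Peak calling gave between 64516 and 104392 broad peaks per library, covering 104 to 167 Mb, and the library with the fewest peaks was DMSO 3. Sequencing depth was not given with the values, so the depth behind each region is unknown. All 7 markers of adrenergic neuroblastoma had a peak at the start site in all 4 DMSO libraries, GATA3 and TH among them. Of the markers of other cell types, all 4 for pericytes and 3 of 5 for mesenchymal cells also had such a peak, against 0 of 5 for oligodendrocyte precursors and Schwann cells, 1 of 4 for immune cells (CD14) and 0 of 3 for endothelial cells (PECAM1 was not assessed). PRRX1, OLIG1, OLIG2 and KDR had no region and no peak at the start site in any library. The concentrations are the authors' group means on a log2 scale over the whole region, with no SD or n, and a treated-minus-DMSO difference of at least 1 in size (a factor of 2) was counted.

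In the PB, RA and PB+RA groups, acetylation was lower by at least 1 at 46, 39 and 67 of the 85 regions. Over all 92108 regions the shares lower by at least 1 were 8.14%, 7.24% and 16.1%. It was higher by at least 1 at 2, 0 and 1 of the 85 regions, where the shares over all regions were 7.27%, 14.6% and 19.8%. The median differences over the 85 regions were -1.06, -0.95 and -1.78, beside -0.09, -0.01 and -0.02 over all regions. Since the genes were chosen for low values, nothing is read from these counts against the background. The paper kept regions with peaks in 2 or more libraries of any group. Some regions entered through DMSO alone, such as 1 at IGSF21, 205 kb from the start, and lower treated values are partly built in there. Of the 65 regions with peaks in at least 3 of 4 libraries of a group, 36, 31 and 54 were lower by at least 1. DMSO alone can also pass that filter.

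The genes differed in which drug went with the lower acetylation. At LINGO1, 24 of 43 regions were lower by at least 1 with PB and 6 with RA, and the median difference was -1.07 with PB and -0.63 with RA. IGSF21 had the opposite order, with 11 of 28 regions lower with PB and 23 with RA, and medians of -0.84 and -1.99. At CSPG4, 9 of 10 regions were lower with PB and 7 with RA, with a median of -1.33 for each drug. At NXPH2, 2 of 4 regions were lower with PB and 3 with RA, with medians of -0.77 and -1.37. With PB+RA the counts were 30, 25, 9 and 3 at LINGO1, IGSF21, CSPG4 and NXPH2, and the medians were -1.25, -2.23, -2.52 and -1.96. Just inside and just outside the limit stood an NXPH2 and a LINGO1 region at -1.002 and -0.992 with PB, a CSPG4 and a LINGO1 region at -1.004 and -0.999 with RA, and an IGSF21 and a LINGO1 region at -1.02 and -0.98 with PB+RA.

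**Figure D1:**
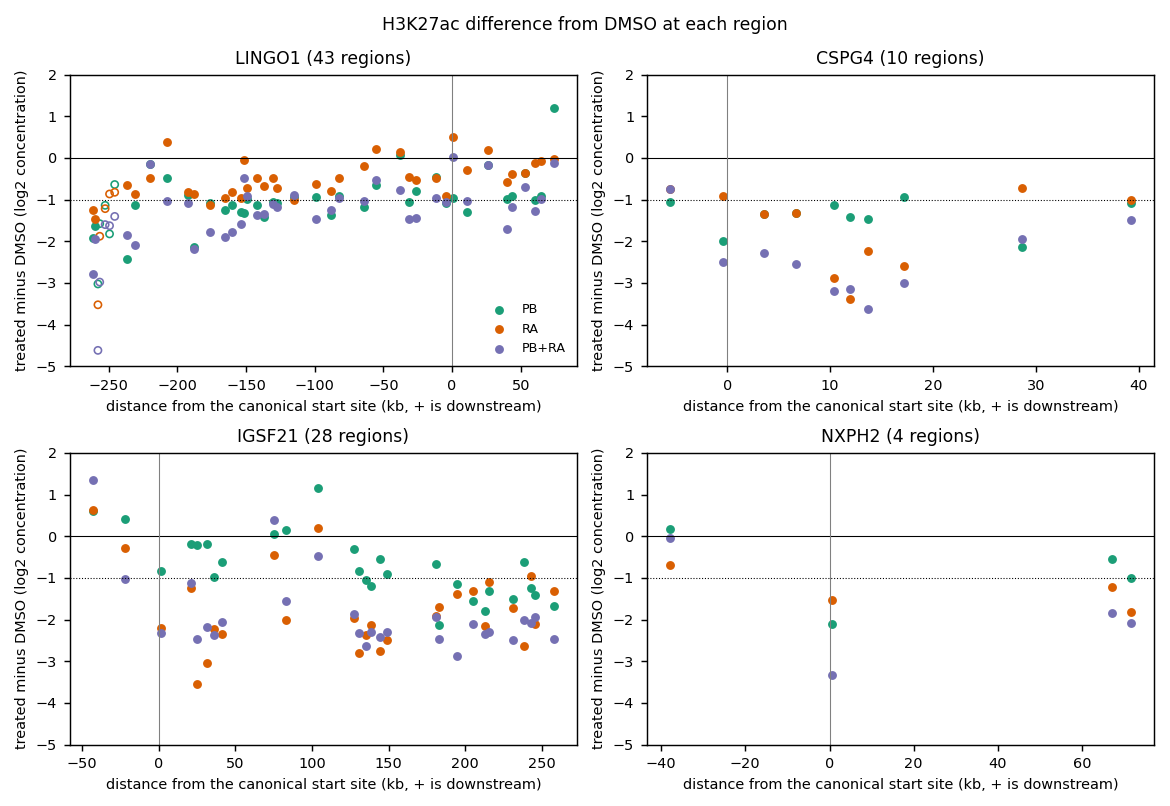
Each point is 1 region, placed by the distance of its middle from the canonical start site of the gene (x axis, kb, positive downstream) and by its treated-minus-DMSO difference in mean log2 concentration (y axis). Colours mark PB, RA and PB+RA, open points mark the 5 LINGO1 regions that align to CSPG4, and the dotted line is at -1. IGSF21 regions lie lower with RA than with PB over most of the gene, while LINGO1 regions lie lower with PB.

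GC content moved with the PB and PB+RA differences over the whole table. In the class of regions poorest in GC (10 classes of about equal size) 0.25% were lower by at least 1 with PB, as were 38.9% in the richest. The median PB difference went from 0.56 to -0.86 between those classes, the PB+RA median from 0.99 to -0.87, and the RA median from 0.59 to -0.17. The 85 regions had a median GC content of 55.3%, against 47.1% over all regions, with medians of 56.2% at LINGO1, 59.1% at CSPG4, 52.2% at IGSF21 and 41.8% at NXPH2. After each difference was centred on the median of its GC class, the count of regions lower by at least 1 was 15 with PB (7 at LINGO1, 2 at CSPG4, 4 at IGSF21 and 2 at NXPH2), 37 with RA (5, 6, 22 and 4) and 46 under PB+RA, where 2.59%, 8.59% and 11.8% of all regions passed. The centred PB medians were -0.55 at LINGO1, -0.83 at CSPG4, -0.39 at IGSF21 and -1.06 at NXPH2, and those with RA were -0.38, -1.09, -1.86 and -1.34. So the excess of PB over RA in the LINGO1 counts, 24 against 6, was 7 against 5 after centring, and at CSPG4 9 against 7 became 2 against 6, while IGSF21 kept its order. The part of base composition in the PB differences was not tested.

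**Figure D2:**
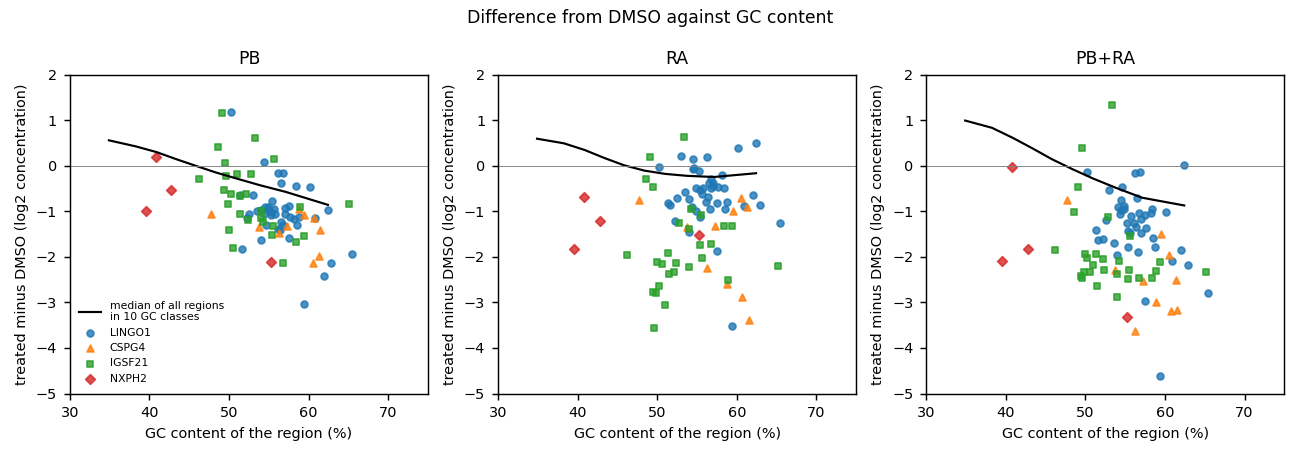
Treated-minus-DMSO difference in mean log2 concentration (y axis) against the GC content of the region (x axis, %), with 1 panel per treatment and 1 symbol per gene. The black line joins the medians of all regions in 10 GC classes and goes from 0.56 to -0.86 with PB. NXPH2 and most IGSF21 regions lie well below the line with RA, and LINGO1 regions lie closer to it.

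Broad peaks of single libraries gave a measure with a spread. The length of the IGSF21 locus under peaks (chr1:18390901-18704977, from the first assigned region to the gene end) was 35.7, 50.5, 33.9 and 49.1 kb in the 4 DMSO libraries. It was 19.9, 19.2, 19.0 and 12.2 kb with PB, 1.66, 2.39, 3.11 and 2.42 kb with RA, and 3.65, 2.78, 7.53 and 4.62 kb with PB+RA. The groups did not overlap with DMSO under any treatment, and all 4 RA libraries were far below all 4 PB libraries. With peaks of a −log10 q of at least 4 only, the PB libraries, at 13.8, 12.8, 6.14 and 4.92 kb, overlapped with the DMSO libraries, at 11.5, 14.7, 13.6 and 16.5 kb. The mean went from 42.3 ± 8.72 kb (SD, n = 4) with DMSO to 17.6 ± 3.61 kb with PB, 2.4 ± 0.591 kb with RA and 4.64 ± 2.07 kb with PB+RA.

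At CSPG4 (chr15:75961300-76011665) the length under peaks was 18.8, 20.2, 12.9 and 21.1 kb with DMSO, 8.19, 7.05, 6.29 and 6.89 kb with PB, 6.42, 9.94, 7.86 and 8.66 kb with RA and 3.78, 1.46, 5.60 and 4.34 kb with PB+RA. None of the treated groups overlapped with DMSO, the PB and RA groups overlapped with each other, and PB+RA lay below both. The difference of the group mean from DMSO was -61.1% with PB, -55.0% with RA and -79.2% under PB+RA. At NXPH2 (chr2:139426727-139576676) the lengths were shorter, with 3.01, 2.75, 4.06 and 4.88 kb with DMSO, 1.42, 1.49, 2.65 and 1.49 kb with PB, 0.322, 0.972, 2.39 and 1.39 kb with RA, and 0.787, 0.217, 1.25 and 1.06 kb with PB+RA. Again no treated group overlapped with DMSO, although the highest PB library (2.65 kb) and the lowest DMSO library (2.75 kb) were close. As a share of all bases under peaks in the library, PB 3 (22.5 ppm) lay above DMSO 1 and DMSO 2 (22.3 and 17.2 ppm), and with peaks of a −log10 q of at least 4 only, RA 4 (1.39 kb) lay above DMSO 1 and DMSO 2 (1.31 and 1.38 kb).

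The LINGO1 locus (chr15:77850828-78186942) was under peaks for 112, 150, 46.1 and 167 kb in the DMSO libraries. The lengths were 36.6, 38.3, 47.4 and 48.9 kb with PB, 61.9, 76.9, 96.0 and 74.3 kb with RA, and 33.6, 21.4, 40.7 and 46.5 kb with PB+RA. Each treated group overlapped with DMSO through 1 library, DMSO 3 at 46.1 kb, and lay below the other 3 DMSO libraries. The difference of the group mean from DMSO was -64.0% with PB, -35.0% with RA and -70.1% under PB+RA, and without DMSO 3 these values were -70.1%, -46.0% and -75.2%.

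**Figure D3:**
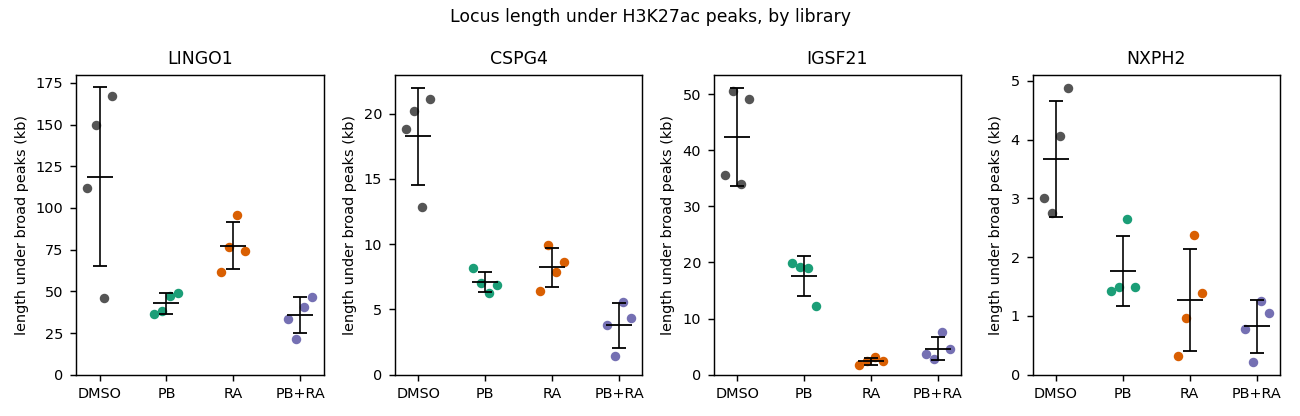
Length of each locus under broad peaks (y axis, kb) in each of the 16 ChIP libraries, by group. Points are libraries and bars are the mean and SD of 4 libraries, and the only overlap of a treated group with DMSO is at LINGO1, through DMSO 3.

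By region, the share of bases under a peak was lower in all 4 treated than in all 4 DMSO libraries at 28 of the 85 regions with PB, 23 with RA and 36 under PB+RA. Of all regions, 5.09%, 5.63% and 7.49% did so. Without DMSO 3 the counts were 45 with PB and 43 with RA, and separation is also easier to reach with fewer libraries. A peak in 4 of 4 DMSO libraries and in 0 of 4 treated libraries was found at 6 regions with PB, 13 with RA and 16 under PB+RA, against 0.521%, 0.904% and 1.09% of all regions. Of those with RA, 9 were at IGSF21, 2 at CSPG4 and 2 at LINGO1. These 2 LINGO1 regions lay outside the gene body, -258 and -261 kb from the canonical start, beside the pseudogene CSPG4P13 described below. Both had no peak in any treated library, nor had IGSF21 regions 183, 213 and 246 kb from the start. Such regions passed the authors' filter through DMSO alone, so empty treated groups are partly built in. Nothing is read from the counts of this paragraph against the shares of all regions. A peak in all 4 DMSO libraries was present at 48 of the 85 regions.

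LINGO1 has several start sites, and its canonical start and far 5′ start differed. Over the canonical start (chr15:77921093-77927445) the concentration was 8.54 with DMSO, 7.57 with PB, 9.03 with RA and 8.55 under PB+RA, so the differences were -0.97, 0.49 and 0.01. Centred on the GC class they were -0.11, 0.66 and 0.89. The highest peak there stood at 4.74, 4.87, 6.78 and 7.78 fold over input with DMSO and at 8.23, 8.50, 9.52 and 9.96 fold with RA, and all 4 RA libraries were above all 4 DMSO libraries. The 22904-base region downstream of it, the widest of the gene (chr15:77887859-77910762), overlapped exons and had concentrations of 10.87, 10.71, 11.05 and 10.71 with DMSO, PB, RA and PB+RA. The share of it under peaks was 83.4%, 88.4%, 31.0% and 82.3% with DMSO, 46.7%, 40.1%, 48.6% and 52.7% with PB and 56.7%, 37.7%, 46.1% and 43.4% with PB+RA, all below the DMSO libraries other than DMSO 3. Its highest peak was 9.32, 12.0, 8.16 and 9.78 fold with DMSO and 16.8, 13.9, 13.6 and 11 fold with PB+RA. The name silenced therefore goes against the concentrations and peak heights at these 2 LINGO1 regions, which had peaks in all 16 libraries.

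Over the far 5′ start of LINGO1 (chr15:78110630-78115976) the concentration was 8.07 with DMSO, 5.94 with PB, 7.2 with RA and 5.88 under PB+RA, which are differences of -2.13, -0.86 and -2.19. The highest peak was 4.79, 6.84, 9.85 and 8.96 fold with DMSO. It was 2.99, 3.42, 3.34 and 3.30 fold with PB and 3.18, 2.88, 2.92 and 4.21 fold with PB+RA, below every DMSO library, while the RA values of 4.15, 3.43, 7.39 and 9.38 fold overlapped with DMSO. A peak remained in all 16 libraries. Centred on its GC class the PB difference was -1.27. Of the 17 LINGO1 regions in introns, 10 were lower by at least 1 with PB, 1 with RA and 10 under PB+RA, and the only LINGO1 region that was higher by at least 1 was a 404-base region 74.2 kb downstream of the canonical start with PB (1.18, with peaks in 2 PB libraries).

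The lowest PB+RA difference of the 85 regions, which was also the lowest of all 92108, was assigned to LINGO1 but lies far upstream, at -258 kb from its canonical start, beside the pseudogene CSPG4P13. This 515-base region (chr15:78182690-78183204) had a concentration of 4.62 with DMSO, 1.59 with PB, 1.09 with RA and 0.00 under PB+RA. A value of 0 is the lowest that the tables hold, so the difference of -4.62 depends on that floor. The highest peak was 5.29, 4.53, 5.44 and 5.65 fold in the DMSO libraries, and none of the 12 treated libraries had a peak. Of its bases, 509 aligned to a stretch of a CSPG4 intron in the opposite orientation (chr15:75993244-75993821). Of these aligned bases 97.1% were identical, and bases in gaps were not counted. A stretch of 160 bases without gaps is shown for both places, since it is what a read there would be placed by. Both are written 5′ to 3′ in the direction of the LINGO1 side copy on the plus strand (chr15:78182879-78183038), the CSPG4 letters come from the minus strand (chr15:75993405-75993564), and capitals mark the 4 positions at which they differ.
CSPG4: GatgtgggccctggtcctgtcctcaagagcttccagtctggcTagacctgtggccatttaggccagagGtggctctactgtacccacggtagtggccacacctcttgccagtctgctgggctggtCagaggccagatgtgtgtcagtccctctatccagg
copy: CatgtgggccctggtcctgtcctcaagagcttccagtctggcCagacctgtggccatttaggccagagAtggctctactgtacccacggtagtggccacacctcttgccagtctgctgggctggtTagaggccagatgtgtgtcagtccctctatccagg
The CSPG4 region over the matching stretch (chr15:75992604-75993867, an intron) had differences of -1.42, -3.39 and -3.16 with PB, RA and PB+RA, and the copy had -3.03, -3.53 and -4.62. Of the 50-base words of the copied region, 20.6% occur unchanged at CSPG4.

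In all, 5 LINGO1 regions aligned to CSPG4 over at least 50% of their length with at least 90% of aligned bases identical. The values lay between 92.9% and 97.1%, with gaps left out. Reads from near-identical copies may be placed at either one, no mapping filter is given in the sources used here, and the values of these 5 regions and of their CSPG4 partners are uncertain for that reason. Their RA differences lay between -3.53 and -0.83, and 3 of them were lower by at least 1. Without them LINGO1 had 38 regions, of which 20 were lower with PB, 3 with RA and 25 under PB+RA, and its median RA difference was -0.52. A further region nearest to the pseudogene (chr15:78186394-78186942) aligned to CSPG4 over only 120 bases, with differences of -1.93, -1.26 and -2.80. Around the other 6 CSPG4 pseudogenes of chromosome 15 no region lay within 20 kb.

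CSPG4 (body chr15:75966663-76005189, minus strand) combined a start that was lower mainly with PB and a group of intron regions, 10.4 to 17.1 kb inside the gene, that were lower mainly with RA. Over the start site (chr15:76004888-76006361) the concentration was 6.92 with DMSO, 4.93 with PB, 6.01 with RA and 4.41 under PB+RA. The highest peak was 5.13, 6.55, 5.19 and 7.45 fold with DMSO and 3.0, 4.1, 5.20 and 5.83 fold with RA, which overlapped. With PB, 2 libraries had no peak and 2 had peaks of 3.61 and 3.77 fold, and with PB+RA 2 had none and 2 had 3.03 and 3.78 fold, all below DMSO. Centred on its GC class the PB difference of -1.99 became -1.13.

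The tallest CSPG4 peak lay in an intron (chr15:75985681-75990398), at 13.2, 16.9, 8.94 and 13.3 fold with DMSO. It was 11.2, 10.6, 9.84 and 6.31 fold with PB, which overlapped with DMSO, and 4.78, 6.39, 5.80 and 5.39 fold with RA and 6.90, 5.41, 4.58 and 5.98 fold with PB+RA, which did not. The differences in concentration were -0.95, -2.61 and -3.0. The 3 intron regions that followed towards the start had RA differences of -2.24, -3.39 and -2.88 and no peak in any RA or PB+RA library, while 2 of them kept a peak in all 4 PB libraries. These 2 regions, with RA differences of -3.39 and -2.88, are partners of LINGO1 regions that align to CSPG4. Their values are uncertain for the reason given above. The lowest PB+RA difference of the gene was -3.63, at a 366-base region (chr15:75991323-75991688) with peaks in 3 DMSO and 2 PB libraries. Its PB+RA concentration was 0.28, close to the floor of 0. The one upstream region had -1.07, -0.76 and -0.75. The lowest PB difference, -2.13, was at a weak intron region (chr15:75976217-75976771) that also had the RA difference nearest to 0, -0.72, and peaks in 3 DMSO libraries alone. The region over the gene end (chr15:75961300-75970522) has the start site of SNX33, a neighbouring gene, as its nearest, and had -1.08, -1.0 and -1.5.

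IGSF21 (body chr1:18434292-18704977, plus strand) had DMSO peaks spread along its introns, with stretches free of peaks between them. Over the start site (chr1:18433871-18437683) the concentration was 6.94 with DMSO, 6.10 with PB, 4.75 with RA and 4.61 under PB+RA. The differences of -0.84, -2.19 and -2.33 were 0.02, -2.03 and -1.46 after centring on the GC class, so the PB difference did not remain. The highest peak was 3.24, 3.51, 6.28 and 4.58 fold with DMSO and 4.29, 3.14, 4.27 and 2.88 fold with PB, which overlapped. With RA, 2 libraries had no peak and 2 had 2.98 and 4.16 fold, and with PB+RA 3 had none and 1 had 2.86 fold.

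The lowest RA difference of the 85 regions was at an intron region 25.1 kb into IGSF21 (chr1:18456978-18461848). The highest peak there was 7.21, 7.65, 8.66 and 6.70 fold with DMSO and 9.16, 9.56, 6.19 and 5.31 fold with PB, which overlapped. With RA, 3 libraries had no peak and 1 had 2.87 fold, whereas with PB+RA all 4 had one, at 4.31, 3.39, 3.32 and 3.68 fold. The differences in concentration were -0.22 with PB, -3.56 with RA and -2.47 under PB+RA, so the level was higher with PB+RA than with RA alone. The neighbouring region 31.5 kb into the gene had -0.18, -3.05 and -2.18. Further on, a region 238 kb from the start (chr1:18669640-18675327) kept a peak in all 16 libraries, at 6.34, 8.22, 6.92 and 5.75 fold with DMSO and 3.98, 3.4, 3.4 and 3.9 fold with RA, with differences of -0.61, -2.64 and -2.02. The lowest PB difference of IGSF21 was -2.13, at a region 183 kb from the start that had peaks in all 4 DMSO libraries and in none of the others. The lowest PB+RA difference was -2.88, at a weak 730-base region 195 kb from the start. It had peaks in 2 DMSO libraries and 1 RA library, and its PB+RA concentration was 1.02. The widest IGSF21 region, 7724 bases in an intron 144 kb from the start (chr1:18574545-18582268), had -0.54, -2.77 and -2.42. Its share under peaks was 63.6%, 78.4%, 42.8% and 87.1% with DMSO, 35.2%, 27.8%, 30.02% and 19.9% with PB and 0%, 4.98%, 4.74% and 0% with RA, and the 3 groups did not overlap.

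Not every IGSF21 region was lower. A region 75.2 kb into the gene (chr1:18508926-18510108) had differences of 0.06, -0.46 and 0.39 and peaks in 3, 3, 2 and 4 libraries with DMSO, PB, RA and PB+RA. A 383-base intron region 104 kb from the start (chr1:18538204-18538586) was the only IGSF21 region higher by at least 1 with PB (1.16, 0.20 and -0.47), with peaks in 2 PB libraries and in no other. A weak region at -43.0 kb, upstream of the start (chr1:18390901-18391714) was the only one of the 85 that was higher by at least 1 with PB+RA (0.60, 0.63 and 1.34), with peaks in 0, 1, 1 and 2 libraries.

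**Figure D4:**
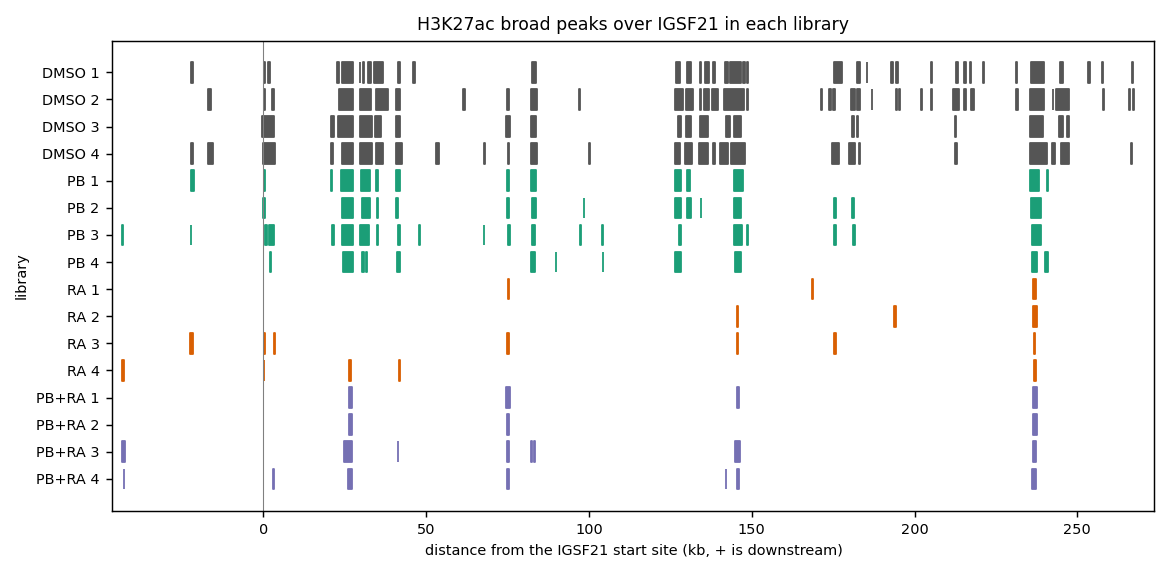
Broad peaks of each of the 16 libraries (rows) over the IGSF21 locus, by distance from the start site (x axis, kb, positive downstream). Bars are peaks, which cover 33.9 to 50.5 kb in the DMSO libraries, 12.2 to 19.9 kb with PB, 1.66 to 3.11 kb with RA and 2.78 to 7.53 kb with PB+RA.

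NXPH2 (body chr2:139426727-139537960, minus strand) had 4 regions. Over its start site (chr2:139535964-139538685) the concentration was 7.45 with DMSO, 5.33 with PB, 5.92 with RA and 4.13 under PB+RA. The highest peak was 5.27, 5.46, 10.9 and 8.12 fold with DMSO, and 2.78, 4.27, 3.63 and 5.40 fold with RA, which overlapped with DMSO through 1 library. With PB 1 library had no peak and 3 had 3.08, 3.47 and 3.43 fold, and with PB+RA 3 had none and 1 had 3.03 fold, all below DMSO. The start differences of -2.12, -1.53 and -3.32 were -1.69, -1.31 and -2.84 after centring on the GC class. Both intron regions, 67.1 and 71.7 kb into the gene, were lower by at least 1 with RA (-1.21 and -1.82) and with PB+RA (-1.83 and -2.09), and neither had a peak in any PB+RA library. The region -37.9 kb from the start, outside the gene (chr2:139575000-139576676), had differences of 0.18, -0.68 and -0.04 and peaks in 4, 4, 3 and 4 libraries. Its share under peaks was 41.9%, 14%, 59.2% and 37.2% with DMSO and 10.3%, 14.8%, 17.9% and 0% with RA, which overlapped, and its RA difference was -1.03 after centring on the GC class.

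**Figure D5:**
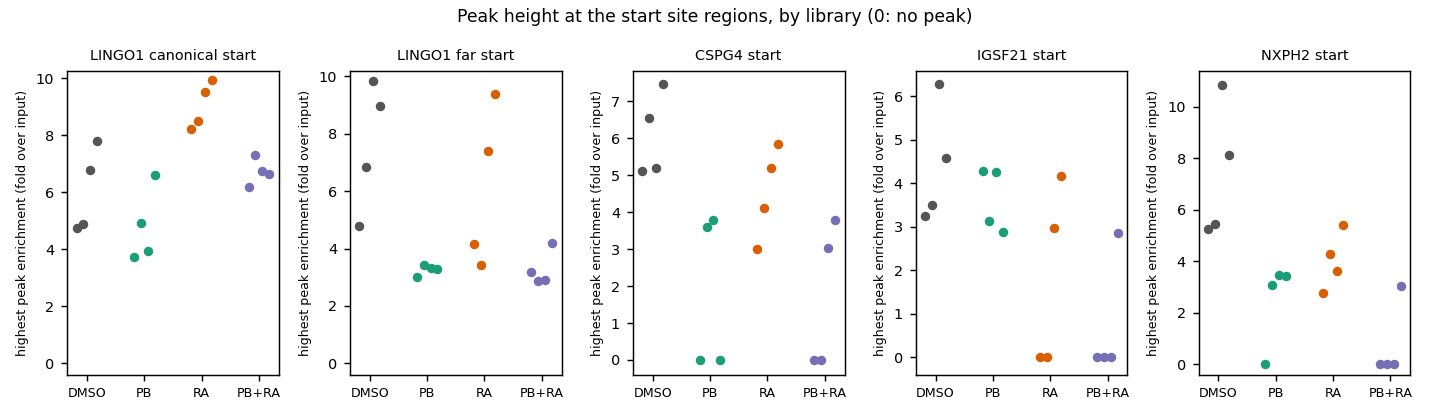
Highest fold enrichment over input of a broad peak (y axis, 0 where there was no peak) in each of the 16 libraries at the regions over 2 LINGO1 starts and the CSPG4, IGSF21 and NXPH2 starts. With PB+RA all 4 libraries lie below all 4 DMSO libraries at every start but the canonical one of LINGO1, where RA libraries lie between 8.23 and 9.96 fold.

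PB+RA was lower than RA alone at 67 of the 85 regions, and by at least 0.5 at 43. Over all 92108 regions it was lower at 46476, lower by at least 0.5 at 22955 and higher by at least 0.5 at 20548. The median of PB+RA minus RA over all regions was -0.008. The median of PB+RA minus RA was -0.75 at LINGO1, -0.72 at CSPG4, -0.45 at NXPH2 and -0.08 at IGSF21, where 15 of 28 regions were lower and 13 higher, and 9 were lower and 5 higher by at least 0.5. The median of PB+RA minus PB was -0.25 at LINGO1, -1.08 at CSPG4, -1.15 at NXPH2 and -1.39 at IGSF21, beside 0.11 over all regions. The PB+RA difference minus the sum of both single-drug differences had a median of 0.49 over the 85 regions and of 0.09 over all regions. It was above 0 at 71 of the 85 and at 51721 of all 92108 regions. This measure takes the DMSO value into all its terms.

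The surroundings of each locus, within 500 kb on either side and leaving out the 85 regions, were also described. Around IGSF21, 40 of 59 regions (67.8%) were lower by at least 1 with RA and 0 were higher. They included 8 of 8 regions of KLHDC7A, with a median of -2.28, and 18 of 30 of ACTL8, with a median of -1.21, so the low values with RA were not limited to IGSF21 itself. Around LINGO1 10 of 66 regions were lower with RA and 24 under PB+RA, 14 of the latter at TBC1D2B. Around CSPG4 0 of 51 were lower with RA and 11 under PB+RA, and around NXPH2 9 of 22 and 6 were lower, 8 of the former at SPOPL. With PB the counts were 10, 6, 23 and 1 around LINGO1, CSPG4, IGSF21 and NXPH2. Regions higher by at least 1 numbered 1, 2, 1 and 5 with PB, 6, 2, 0 and 3 with RA, and 2, 4, 0 and 4 for PB+RA, in the same order.

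For each gene, the 3 genes of most similar profile were found by Pearson's r of the mean share of region bases under peaks over the 16 libraries, among 4992 genes with at least 5 regions. For LINGO1 they were CABP7, PREX1 and TTYH2 (r of 0.982, 0.982 and 0.978), and for CSPG4 ZNF618, GLI2 and ACCSL (0.979, 0.977 and 0.958). For IGSF21 they were HAND1, ADRA2B and its neighbour KLHDC7A (0.978, 0.967 and 0.962), and for NXPH2 PALLD, SOSTDC1 and DMRTB1 (0.948, 0.910 and 0.907). The points share their libraries and the spread between groups, so the values only rank genes. HAND1, a bHLH factor of the sympathetic lineage, had 64.5% of its region bases under peaks on average with DMSO, 29.2% with PB, 15.4% with RA and 15.6% under PB+RA, and IGSF21 had 50.1%, 19.9%, 3.15% and 5.76%.

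Partners of the 4 proteins were counted by list. Of 12 genes of the Nogo receptor complex and its ligands, 11 had regions. A region lower by at least 1 was held by 5 with PB, 4 with RA and 6 under PB+RA, and a higher one by 2, 5 and 5. Over all 15005 genes with regions, 26.4%, 15.1% and 33.9% had a lower and 17.1%, 26.2% and 34.5% a higher one. RTN4R, the receptor that LINGO1 joins, had 9 of 9 regions lower with PB+RA, and its start region differed by -0.92, -0.51 and -1.09. The start regions of RTN4RL1 and RTN4RL2, both Nogo receptor homologues, differed by -1.93 and -2.33 with PB and by -0.23 and -0.13 with RA, and LINGO4 differed by -1.64 with RA. RTN4RL2 was weak there, with a start peak in 1 DMSO library alone and concentrations of 3.93 with DMSO and 1.60 with PB. The region nearest to OMG, which encodes a myelin ligand of the receptor, differed by 1.34, 1.53 and 1.75. It lay 41916 bases from the OMG start, which had a peak in 1 PB+RA library alone. The median over the list was -0.16 with PB, 0.14 with RA and 0.13 under PB+RA. Differences of this list and of the lists below were not centred on GC classes. The part of base composition in them was not tested.

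Of 17 neurexins, neurexophilins and partners, 12 had regions, and 3 had one that was lower by at least 1 with PB, 2 with RA and 5 under PB+RA, where 5, 4 and 6 had one that was higher. NXPH1 differed at its start by -0.87, -1.41 and -1.56, NXPH4 by -1.27 with PB and -1.07 with PB+RA, and the neurexin NRXN3 by -1.94, 0.49 and -1.19 at the region nearest to its start. No library had a peak at the NRXN3 start, and the concentrations near it were 2.94 with DMSO and 1.00 with PB. Of 14 chondroitin sulfate proteoglycans, link proteins and receptors, 7 had a lower region with PB, 0 with RA and 6 under PB+RA, and 3, 4 and 5 had a higher one. CSPG5 differed at its start by -2.09, 0.19 and -1.33 and the receptor PTPRD by -2.16, 0.36 and -0.42, while the region nearest to PTPRZ1 was higher, by 1.0, 2.94 and 4.21. That region lay 5630 bases from the PTPRZ1 start, which had a peak in 1 RA library alone. PTPRD was weak, with a start peak in 1 DMSO and 2 RA libraries and concentrations of 3.44 with DMSO and 1.28 with PB. Of 13 immunoglobulin superfamily adhesion genes, 6, 4 and 8 had a lower and 4, 3 and 4 a higher region, with start differences of -2.19, -0.43 and -2.54 at SDK1, -1.75, -0.06 and -1.22 at SDK2 and 0.23, 0.94 and 2.19 at CADM3. SDK2 had a start peak in 1 DMSO and 2 RA libraries alone. CADM3 had one in 1 RA and 3 PB+RA libraries alone, and its DMSO concentration was 3.67. The medians with PB, RA and PB+RA were 0.01, -0.08 and 0.09 for the neurexin list, -0.42, 0.02 and -0.50 for the proteoglycan list and -0.15, -0.19 and -0.29 for the adhesion list. Of the 15005 genes with an assigned region, 26.4% had a lower region with PB, 15.1% with RA and 33.9% under PB+RA, and 17.1%, 26.2% and 34.5% had a higher one. A gene with more regions more easily has 1 that passes, which these shares do not allow for. The lists held 90, 64, 76 and 143 regions, in the order above. With PB 12, 8, 11 and 13 of them were lower by at least 1 and 4, 9, 5 and 9 higher. With RA 6, 3, 0 and 12 were lower and 9, 9, 8 and 6 higher. With PB+RA 20, 11, 12 and 29 were lower and 17, 15, 11 and 13 higher. Over all regions 8.14%, 7.24% and 16.1% were lower and 7.27%, 14.6% and 19.8% higher.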

How the data were processed

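Sample titles gave the groups and replicate numbers of the 16 ChIP libraries, and the study calls the 4 libraries of a group biological replicates. Per the submitters' processing notes, the authors used fastp 0.12.4 for trimming, Bowtie2 2.4.4 for alignment to hg19 and MACS2 2.2.7.1 for broad peaks per library over input, and built the comparison tables with DiffBind 3.4. The deposited concentrations are the authors' log2 group means, normalized by them, and the tables also hold their log2 fold changes, p-values and FDR, which were not used. From the peak lists, the deposited fold enrichment (a ratio over input) and the authors' −log10 q were used, and the deposited score and the authors' −log10 p were not.

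Differences were formed from the group means, and values of single libraries from the peaks. The normalization sets the average difference near 0, so a shift of the total mark is hidden, and peak lists depend on depths that are unknown here. Regions were assigned to the nearest of 78714 protein-coding start sites of GENCODE release 44 lifted to GRCh37, which gave 72309 regions at 15005 genes, and 16 regions outside the reference sequences have no GC content. A local alignment (Biopython 1.88) compared the upstream LINGO1 regions with CSPG4. Scripts in Python 3.11.15 with pandas 2.3.3 were checked on simulated intervals. For each gene, the regions named are that nearest to the start, the widest and those with the lowest and highest differences, with some added after their values were seen, and each list is named by its largest differences near the start. The genes, lists and alternatives were chosen with earlier results of these data known. No test was run on the 4 genes. The deviations of libraries with the same replicate number from their group means correlated by 0.00467 to 0.152 in share of region bases under peaks, so the numbers were not taken to pair the libraries.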

Additional observations from a re-analysis of the deposited data

Results flagged for a closer look

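In 2 of 16 sets of 4 libraries, 1 library stood apart from the others by Dixon's criterion at 95%, which flags about 5% of such sets by chance. The IGSF21 length under peaks in PB 4 was 12.2 kb, below 19.0 to 19.9 kb in the other PB libraries, with a gap of 0.885 of the group's range. The NXPH2 length under peaks in PB 3 was 2.65 kb, above 1.42 to 1.49 kb in the other PB libraries, with a gap of 0.938 of the range.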

How the results depend on the processing

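Of 213 alternative values for 21 counts and lengths, 199 stayed within 1.5 times the count or 1 SD of the length, and no change in length turned its sign. At LINGO1 that SD was 45.2% of the DMSO mean, wider than its RA difference of -35.0%. The LINGO1 lengths could therefore hardly leave this limit. Centring within GC classes turned the difference of 8 regions with PB, 5 with RA and 4 under PB+RA from below 0 to above 0, and of 1 with PB the other way. The count of regions lower by at least 1 with PB went from 46 to 15 when a difference of 1.5 was asked for, and also to 15 when differences were centred within GC classes, and the count with RA went from 39 to 62 at a minimum of 0.5. The counts of regions whose share under peaks did not overlap with DMSO were 14 with PB when the highest enrichment was used in place of the share, and, with peaks of a −log10 q of at least 4 only, 11, 8 and 14 for the PB, RA and PB+RA groups. Leaving out 1 library at a time gave 29 to 45 with PB, 23 to 43 with RA and 36 to 54 with PB+RA, the highest of each without DMSO 3, and fewer libraries also make separation easier. Regions with a peak in 4 of 4 DMSO and 0 of 4 treated libraries numbered 6 with RA and 9 with PB+RA at that −log10 q, and 10 with PB+RA when a peak had to cover 50% of the region. With the stricter peaks, the difference in length under peaks with PB was -33.1% at IGSF21 and -100% at NXPH2, where no PB library kept such a peak. Leaving out 1 library at a time gave IGSF21 differences of -61.0% to -54.2% with PB and -94.9% to -93.8% with RA, CSPG4 differences of -64.6% to -58.9% with PB and -59.0% to -51.7% with RA, LINGO1 differences of -70.1% to -58.3% with PB and -46.0% to -24.8% with RA, and NXPH2 differences of -60.1% to -46.1% with PB and -75.6% to -56.9% with RA. The alternative without the LINGO1 regions that align to CSPG4 was chosen after seeing the data and gave 42, 36 and 62 lower regions in the PB, RA and PB+RA groups. It kept the CSPG4 partners of those regions, whose values are uncertain too. No paired analysis was made, because the results come from no test and the replicate numbers gave no clear pairing of the libraries. The causes were not tested, and unknown depth limits every statement on a missing peak.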
